A study of Arabidopsis thaliana with 6 samples.

Results

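Floral buds were compared with seedlings of Arabidopsis thaliana in 2 accessions, Col-0 and Can-0, each with 1 library of polyadenylated RNA per tissue. The comparison rests on 4 of the 6 libraries of the series, chosen by tissue alone, and the 2 root libraries entered the filter on low values and the estimate of the spread. The seedlings were 11 days old and the buds were at stage 12, both from soil-grown plants kept at 20 C under 16 hours of light and 8 hours of dark. The roots came from 10-day-old plants on plates. Col-0 is the laboratory strain of the reference genome and Can-0 is a natural strain, and the labels give no transgene or treatment for any group. The question is which transcripts differ between a young vegetative plant and a flower shortly before it opens. Each library is labelled as the first biological replicate, so the accessions stood in for replicates, and every p-value measures a tissue difference against how far the accessions and tissues departed from a common pattern. How many plants went into a library, and whether seedlings were taken with their roots, is not given in the sources used here.

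A floral bud just before opening carries sepals, petals, nearly mature anthers and a carpel with ovules. The organs are specified by MADS-box transcription factors that act in combination. Inside the anther a nurse layer, the tapetum, builds and coats the pollen wall and then breaks down, after which the pollen grain stores the transcripts it will use to grow a tube. A seedling is mostly green leaf, where the nuclear genes for light capture and carbon fixation are among the most abundant transcripts of the plant.

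Values are RPKM as deposited, that is reads scaled to gene length and to mapped reads, for 28775 features. Unless stated otherwise a difference is bud minus seedling on the log2(RPKM + 1) scale, averaged over both accessions and given with the standard error of the limma fit (n = 2 libraries per tissue). Paired RPKM values give Col-0 first. For genes listed at 0 in both seedlings the difference depends on the added 1 and is not a fold change. The 4 libraries had similar depth, at 21.8 to 22.8 M mapped reads each, as estimated from the step between small values. For a gene of 1 kb the 3 reads that a count of 0 allows correspond to 0.131 to 0.138 RPKM, for counting error only. The labels place both seedling libraries under run code 33 and the buds under codes 36 and 35, so tissue and run cannot be told apart. Of 15 root marker genes 14 stayed under 1 RPKM in all 4 libraries. Genes of the chloroplast genome took 6.37% and 6.60% of summed RPKM in the seedlings and 1.86% and 2.31% in the buds.

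More features reached 1 RPKM in bud (18839 and 18989) than in seedling (17222 and 17270), and typical levels were higher. Tests covered the 20830 genes that reached 1 RPKM in 2 or more of the 6 libraries, 1556 of which did so only with the roots counted. Of these, 6837 (32.8%) were called higher in bud and 2499 (12.0%) lower at an adjusted p under 0.05, 44.8% in all. Genes near 0 in seedling and root passed the filter only through the buds, so the filter itself favoured a higher call among them. This limits counts among tested members of lists such as floral MADS, pollen tube signalling, pollen transcription factors and sperm cell. The median log2(RPKM + 1) over tested genes was 0.48 higher in bud than in seedling in Col-0 and 0.49 higher in Can-0. When each library was centred on its median, 3385 genes (16.3%) were called higher and 5522 (26.5%) lower, 42.8% in all, and the share of calls that were higher went from 73.2% to 38.0%. The 3385 higher and 2499 lower calls stood under both scalings, 3452 higher calls were lost on centring, 3023 lower calls were gained, and 0 genes turned. A difference of at least 2 in the same direction in both accessions was met by 1501 genes upward (7.21%) and 277 downward (1.33%).

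**Figure D1:**
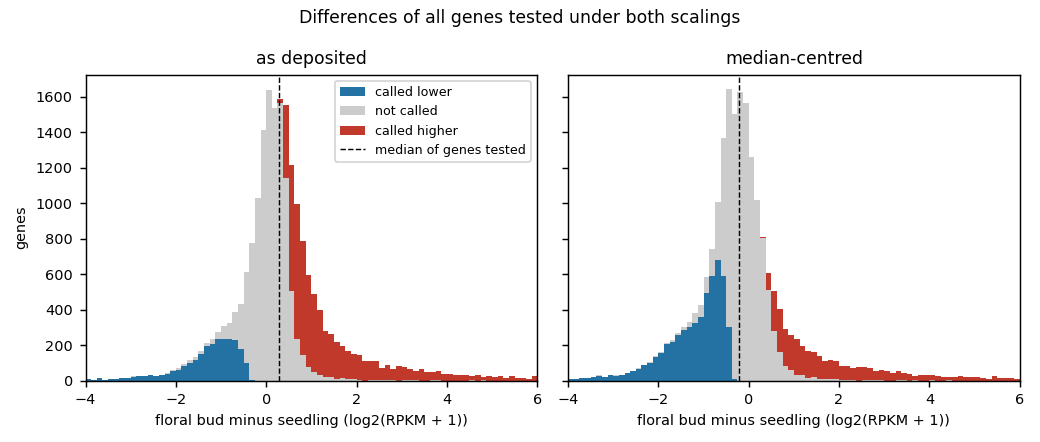
Number of tested genes (y axis) by floral bud minus seedling difference on the log2(RPKM + 1) scale (x axis), as deposited on the left and median-centred on the right, with called genes in colour and the median as a dashed line. Centring moves the median from 0.27 to -0.21 and turns a majority of higher calls into a majority of lower calls.

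Libraries of one tissue were closer to each other than libraries of one accession. Between accessions, log2(RPKM + 1) correlated over genes (genes are no replicates) at r = 0.957 in seedling and 0.955 in bud, against 0.764 and 0.756 between tissues within Col-0 and Can-0. The call itself leaned on having both buds: without the Col-0 bud 1825 genes were called higher and 306 lower, and without the Can-0 bud 1789 and 341, on 1 residual degree of freedom. Calls lost in that way are marked below, most of them with the range of their adjusted p.

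**Figure D2:**
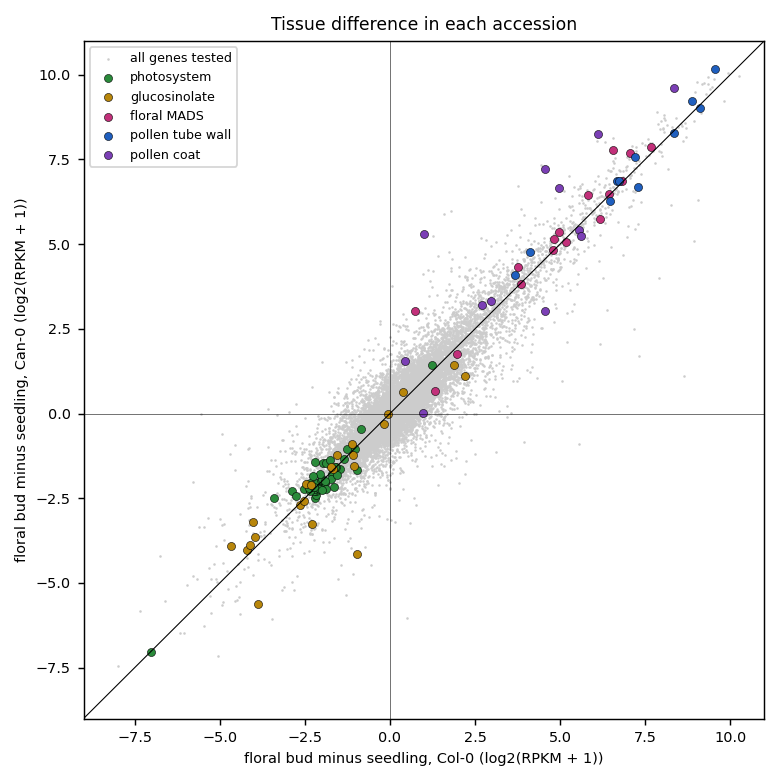
Floral bud minus seedling difference in Can-0 (y axis) against Col-0 (x axis), both on the log2(RPKM + 1) scale, for all tested genes in grey and 5 gene lists in colour, with the diagonal as a line. Pollen tube wall and floral MADS genes lie at the upper right and photosystem genes at the lower left, while some pollen coat genes lie well above the diagonal, such as EXL4 at 1.01 in Col-0 and 5.31 in Can-0.

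The genes that specify floral organs were close to absent from seedlings and abundant in buds. Of 16 floral MADS genes 15 could be tested and 14 were called higher, under both scalings, where 32.8% of all tested genes were called higher as deposited. The median difference over all 16 was 5.14, against 0.098 over all 28775 features. AP3 (AT3G54340), required for petals and stamens, measured 0.0852 and 0.133 RPKM in seedling against 220 and 262 RPKM in bud (7.76 ± 0.14, adjusted p = 0.000117). SEP2 (AT3G02310), a partner that the other organ-identity proteins need, stood at 0.0937 and 0.0324 RPKM against 145 and 214 RPKM (7.38 ± 0.21, adjusted p = 0.000152). STK (AT4G09960), which gives ovules their identity, was listed at 0 in each seedling, against 71.4 and 52.0 RPKM in the buds (5.95 ± 0.18, adjusted p = 0.000173). Both buds lay far above both seedlings for all 3 genes. AG (AT4G18960), which specifies stamens and carpels, differed by 5.16 (adjusted p = 0.000295), and AGL6 (AT2G45650) by 4.99 (adjusted p = 0.000223). SEP4 (AT2G03710) was the tested member not called (adjusted p = 0.0607), with 4.58 RPKM in the Col-0 seedling, 0.162 RPKM in the Can-0 seedling and 8.37 and 8.52 RPKM in bud.

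Regulators of floral meristems and organ growth were more mixed, with 6 of 13 called higher (5 when centred, and 3 then without either seedling or the Col-0 bud) and 0 lower, and 4 untestable at their low level. BPE (AT1G59640), a bHLH factor that limits petal size, was the most abundant, at 1.86 and 1.52 RPKM in seedling and 288 and 223 RPKM in the buds (6.57 ± 0.13, adjusted p = 0.000117). The stem-cell factor WUS (AT2G17950) was listed at 0 in seedling and reached 11.1 and 16.3 RPKM in the buds (3.85 ± 0.20, adjusted p = 0.000562). SUP (AT3G23130), which guards the border between stamens and carpels, was likewise at 0 and then at 2.33 and 2.24 RPKM (1.71 ± 0.16, adjusted p = 0.00251). LFY (AT5G61850), which starts the floral program, stood at 1.84 and 1.15 RPKM (1.28, adjusted p = 0.00801, and 0.0648 without the Col-0 seedling), and UFO (AT1G30950) was listed at 0 in both buds. ANT (AT4G37750), an organ-growth factor also active in leaf primordia, measured 31.9 and 24.0 RPKM in seedling against 27.5 and 29.8 RPKM in bud (0.05 ± 0.16, adjusted p = 0.840).

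Carpel and ovule genes were higher in 9 of 13 cases (11 tested, 0 lower), under both scalings, with a median of 1.54 over all 13. CRC (AT1G69180), a YABBY factor of carpels and nectaries, measured 0.0473 and 0 RPKM in seedling against 14.2 and 26.4 RPKM in bud (4.32 ± 0.29, adjusted p = 0.00101). INO (AT1G23420), which forms the outer ovule layer, was listed at 0 in seedling and reached 11.0 and 9.10 RPKM in the buds (3.46 ± 0.17, adjusted p = 0.000524). NTT (AT3G57670), of the transmitting tract that guides pollen tubes, went from 1.14 and 1.12 RPKM to 12.1 and 14.5 RPKM (2.74 ± 0.18, adjusted p = 0.000926). BEL1 (AT5G41410), a homeodomain factor of ovules, was already at 15.8 and 28.1 RPKM in seedling, and its difference of -0.09 ± 0.24 was within its error (adjusted p = 0.800). Without either bud library 5 of the 13 were called. In whole-tissue RNA, fewer cells of a type and less RNA per cell cannot be told apart, and this holds for every list below.

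Most tapetum genes were at or near 0 in bud, most pollen coat genes were high, and the pollen tube wall list had the highest median of all lists. Of 20 tapetum genes 7 were listed at 0 in both buds, among them the regulators DYT1 (AT4G21330), MS1 (AT5G22260) and TEK (AT2G42940) and the secreted-protein genes ATA7 (AT4G28395) and AT5G07230. Only 7 of the 20 could be tested, 4 were called higher and 1 lower (2 and 2 when centred), and the median over all 20 was 0.017. The 4 higher members were ATA20 (AT3G15400), at 11.8 and 71.3 RPKM in bud (adjusted p = 0.0131, and 0.0538 without the Can-0 seedling), the receptor kinase EMS1 (AT5G07280), at 6.94 and 8.70 RPKM (adjusted p = 0.00286, and 0.0511 without the Can-0 bud), and MYB33 (AT5G06100) and MYB65 (AT3G11440), whose calls were lost without any 1 library (adjusted p = 0.0613 to 0.165). The lower one was ROXY2 (AT5G14070), a glutaredoxin of early anthers (-0.97, adjusted p = 0.0191, and not called without any 1 of these 4 libraries). There were 2 higher calls when the Col-0 bud was left out and 1 when the Can-0 bud was.

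Pollen wall genes were mixed. Of 20 listed, 12 were tested and 6 called higher and 0 lower (4 and 1 when centred), with a median of 0.37. The lower one when centred was DEX1 (AT3G09090) (-0.45, adjusted p = 0.0320), and that call was lost without any 1 library. Of 8 enzymes that make sporopollenin, the polymer of the wall, 4 were tested and 2 called higher (1 when centred). CYP704B1 (AT1G69500), a fatty acid hydroxylase, went from 0 and 0.0789 RPKM to 2.66 and 3.42 RPKM (1.95 ± 0.18, adjusted p = 0.00212), and LAP6 (AT1G02050), a polyketide synthase, from 3.06 and 2.62 RPKM to 5.14 and 4.34 RPKM (0.58, adjusted p = 0.0424, and 0.0768 to 0.192 without any 1 library). The reductase genes DRL1 (AT4G35420), at 6.11 and 4.69 RPKM in bud, and CCRL6 (AT1G68540), at 12.6 and 9.51 RPKM, were not called. The remaining 4 were not tested, among them ACOS5 (AT1G62940), the first enzyme of the pathway, listed at 0 in all 4 libraries, and MS2 (AT3G11980), at 0.290 and 0.150 RPKM in bud. Outside that group CALS5 (AT2G13680), a callose synthase, went from 0.164 and 0.108 RPKM to 18.8 and 27.8 RPKM (4.39 ± 0.22, adjusted p = 0.000489). QRT3 (AT4G20050), a polygalacturonase that separates the grains, went from 0.540 and 0.491 RPKM to 8.55 and 27.2 RPKM (3.44 ± 0.45, adjusted p = 0.00554). RPG1 (AT5G40260) was listed at 0 in seedling and reached 3.81 and 8.34 RPKM in the buds (2.74 ± 0.31, adjusted p = 0.00398). The wall list thus held members at 0 in bud beside members well above every seedling value.

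The pollen coat, a lipid and protein layer that the tapetum leaves on the grain, was represented by 12 genes, of which 9 were called higher under both scalings (median 4.61). All 6 oleosin-type coat genes, which sit side by side on chromosome 5, were called. GRP17 (AT5G07530) was listed at 0 in each seedling, against 323 and 786 RPKM in the buds (8.98 ± 0.38, adjusted p = 0.000336). GRP20 (AT5G07560) measured 0.469 and 0 RPKM in seedling against 101 and 303 RPKM in bud (7.19 ± 0.65, adjusted p = 0.00218). GRP14 (AT5G07510) stood at 0 and then at 46.4 and 41.7 RPKM (5.49 ± 0.16, adjusted p = 0.000152). The lipase genes EXL6 (AT1G75930), at 22.6 and 147 RPKM in bud, and EXL4 (AT1G75910), at 1.08 and 41.4 RPKM, were several-fold higher in the Can-0 bud, while GRP16 (AT5G07540) was higher in the Col-0 bud, at 22.7 against 7.08 RPKM. With 1 bud library per accession this gap has no replicate check. EXL6 was called (5.89 ± 0.73, adjusted p = 0.00492) and EXL4 was not (adjusted p = 0.0907). Together the coat genes made up 0.113% and 0.246% of all RPKM in bud, against 0.00500% and 0.00660% in seedling.

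**Figure D3:**
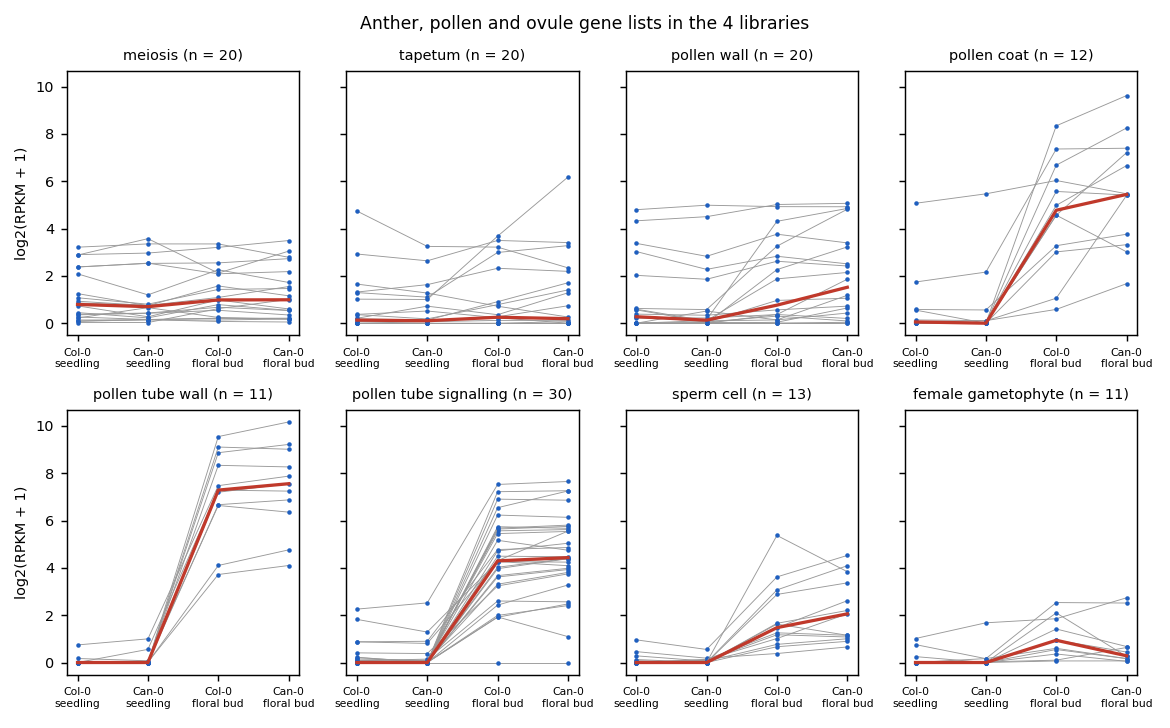
Level on the log2(RPKM + 1) scale (y axis) of every listed gene (thin lines) and the list median (thick line) in the 4 libraries (x axis) for 8 lists of anther, pollen and ovule genes. The medians of the meiosis, tapetum and female gametophyte lists stay low in bud, while those of the pollen tube lists are 0 in both seedlings and above 4 in both buds.

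Pollen tube genes were higher in bud. All 11 pollen tube wall genes were called higher under both scalings and without any 1 library, with a median of 6.99, and they rose from 0.000115% and 0.000214% of all RPKM in seedling to 0.397% and 0.499% in bud. PGA4 (AT1G02790), a polygalacturonase that cuts pectin, was listed at 0 in each seedling, against 747 and 1146 RPKM in the buds (9.86 ± 0.21, adjusted p = 0.000117). VGD1 (AT2G47040), a pectin methylesterase needed for tube growth, was at 0 and then at 465 and 593 RPKM (9.04 ± 0.17, adjusted p = 0.000117). PPME1 (AT1G69940), of the same enzyme class, reached 549 and 515 RPKM, and since it has a near-identical copy, AT5G07410, how reads were divided between them is uncertain. The arabinogalactan protein gene AGP23 (AT3G57690) reached 145 and 187 RPKM (7.37 ± 0.17, adjusted p = 0.000117). CSLD1 (AT2G33100) and CSLD4 (AT4G38190), cellulose synthase-like enzymes, were the lowest of the list at 12.2 to 26.1 RPKM in bud.

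The RefSeq promoter of VGD1 is shown because its gene had one of the highest differences of any listed member. The window holds the 250 bases before the annotated gene start on the minus strand, chr2:19330198-19330447 of TAIR10.1, written 5′ to 3′. Capitals mark the pollen element AGAAA or its reverse complement, and the TATA box TATAAA.
VGD1: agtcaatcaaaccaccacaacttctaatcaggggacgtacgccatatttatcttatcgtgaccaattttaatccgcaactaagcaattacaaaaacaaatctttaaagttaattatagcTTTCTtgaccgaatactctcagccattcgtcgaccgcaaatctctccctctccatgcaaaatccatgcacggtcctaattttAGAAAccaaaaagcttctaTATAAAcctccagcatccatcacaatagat
The marked letters do not overlap. On either strand AGAAA occurred in 11 of 11 pollen tube wall, 26 of 30 pollen tube signalling, 11 of 12 pollen coat, 11 of 12 pollen cytoskeleton and 9 of 11 pollen transcription factor promoters, and in 82.5% of all 26704 protein-coding promoters searched. The TATA box occurred in 25% (pollen coat) to 45.5% (pollen tube wall and pollen transcription factors) of these lists, against 47.7% of all. A match describes letters in the window and no more.

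Signalling genes of the tube moved with the wall genes. Of 30 listed, 29 were called higher under both scalings and 1, the receptor kinase gene AT4G39110, was listed at 0 in all 4 libraries. The median over all 30 was 4.19. Among ligands, the peptide gene RALF4 (AT1G28270) was at 0 in both seedlings and at 119 and 115 RPKM in bud (6.88 ± 0.15, adjusted p = 0.000117), and RALFL19 (AT2G33775), which acts with it to keep the tube wall intact, stood at 46.3 and 48.1 RPKM (5.47 ± 0.16, adjusted p = 0.000156). Their receptors ANX1 (AT3G04690) and ANX2 (AT5G28680) differed by 3.49 and 4.88, and the related AT2G21480 by 4.18. Other receptors included PRK2 (AT2G07040) at 74.1 and 69.3 RPKM (6.18 ± 0.15, adjusted p = 0.000117) and LIP1 (AT5G16500) and LIP2 (AT3G02810) at 48.8 to 52.9 RPKM. Downstream, the calcium-dependent kinase CPK24 (AT2G31500) stood at 0 and then at 148 and 152 RPKM (7.24 ± 0.15, adjusted p = 0.000117) and the proton pump AHA6 (AT2G07560) at 0 and then 92.2 and 151 RPKM (6.90 ± 0.24, adjusted p = 0.000224). The 4 libraries separated cleanly by tissue for each of these genes except AT4G39110.

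All 12 cytoskeleton genes of pollen were called higher (11 when centred), with a median of 5.43. The profilin PRF4 (AT4G29340) was at 0 in seedling and at 84.0 and 145 RPKM in bud (6.80 ± 0.24, adjusted p = 0.000224), and the actin-bundling PLIM2A (AT2G45800) rose from 0.985 and 0.590 RPKM to 174 and 159 RPKM (6.56 ± 0.16, adjusted p = 0.000117). The fimbrin FIM5 (AT5G35700) had the smallest difference (0.81, adjusted p = 0.0120, and 0.0585 to 0.131 without 1 of the Col-0 seedling, Col-0 bud and Can-0 bud), was not called when centred, and stood at 10.3 and 13.3 RPKM in seedling. Of 11 pollen transcription factors 8 were tested and all 8 called higher (7 when centred, 5 without either bud), with a median of 1.82. AGL66 (AT1G77980) and AGL104 (AT1G22130), MADS factors of pollen maturation, were at 0 in seedling and at 17.5 to 24.5 RPKM in bud (4.40 ± 0.19 and 4.63 ± 0.16). MYB101 (AT2G32460), which acts in tube reception, reached 15.9 and 8.88 RPKM, while its relatives MYB97 (AT4G26930) and MYB120 (AT5G55020) stayed under 2 RPKM and were not tested. Since the filter favoured members high in bud, the count among those tested is a description.

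Sperm cell genes were present at low levels. Of 13 listed, 10 were tested and 9 called higher (6 without either seedling, 7 when centred and 4 then without the Can-0 seedling), with a median of 1.48. PCR11 (AT1G68610) went from 0.0915 and 0 RPKM to 40.3 and 13.3 RPKM (4.54 ± 0.45, adjusted p = 0.00273). MGH3 (AT1G19890), a sperm-specific histone H3, was at 0 in seedling and at 7.39 and 16.0 RPKM in bud (3.58 ± 0.32, adjusted p = 0.00210). DUO1 (AT3G60460), the regulator of sperm formation, was at 0.588 and 0.859 RPKM in bud and was not tested. Both PCR11 and MGH3, known as targets of DUO1, thus had higher RPKM in bud than DUO1.

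Few egg-cell and central-cell genes could be tested, and few of the tested meiosis genes were called, where 44.8% of all tested genes were called. Of 11 female gametophyte genes 2 could be tested and 1 was called, EC1.4 (AT4G39340), at 0.690 and 0.119 RPKM in seedling and 4.79 and 4.71 RPKM in bud (2.06 ± 0.24, adjusted p = 0.00440, and 0.0817 to 0.0893 without either bud). EC1.1 (AT1G76750), EC1.2 (AT2G21740), EC1.3 (AT2G21750) and EC1.5 (AT5G64720), from the same family of egg-cell secreted proteins, ranged from 0.120 to 3.27 RPKM in bud and were higher in the Col-0 bud each time. Although most were too low to test, 10 of the 11 female gametophyte genes were higher in bud than in seedling in both accessions. In the Col-0 and Can-0 seedlings 8 and 7 of the 11 were listed at 0, so any reads in bud gave that sign. The same share over all features was not counted, and the sign count is a description of values near the floor. Of 20 meiosis genes 12 were tested, 0 were called higher and 1 lower (0 and 3 when centred, and 0 to 1 lower then without 1 of the seedlings and buds), with a median of 0.16. The lower one, the recombinase DMC1 (AT3G22880), measured 6.36 and 10.9 RPKM in seedling against 3.34 and 7.26 RPKM in bud, and its call (adjusted p = 0.0396) was lost without any 1 library (0.0599 to 0.232). TDM1 (AT4G20900), which ends meiosis, stood at 0.0971 and 0.134 RPKM in bud and 0.0980 and 0.102 RPKM in seedling.

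Open-flower chemistry was already transcribed in the bud. Of 11 floral volatile genes 10 were tested and 8 called higher under both scalings (median 5.71), and their share of all RPKM went from 0.00443% and 0.00558% to 0.143% and 0.0982%. TPS21 (AT5G23960), which makes the sesquiterpene caryophyllene, was at 0 in both seedlings and at 63.2 and 60.3 RPKM in the buds (5.97 ± 0.15, adjusted p = 0.000127). The terpenoid cyclase gene AT5G44630 went from 0.0260 and 0 RPKM to 186 and 193 RPKM (7.55 ± 0.14, adjusted p = 0.000117). The linalool synthase gene TPS14 (AT1G61680) went from 0.164 and 0.0487 RPKM to 358 and 73.5 RPKM (7.21 ± 0.63, adjusted p = 0.00201), with the Col-0 bud well above the Can-0 bud. CYP76C3 (AT2G45580), a P450 that oxidises linalool, also leaned to Col-0, at 70.6 and 39.3 RPKM (5.71 ± 0.28, adjusted p = 0.000489). BSMT1 (AT3G11480), which makes methyl benzoate, leaned to Can-0, at 6.30 and 35.9 RPKM (3.97 ± 0.65, adjusted p = 0.0102).

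Cuticle genes were more often higher than lower. Of 21 listed, 16 were called higher and 2 lower (15 and 3 when centred), with a median of 2.07. The shares over all tested genes were 32.8% higher and 12.0% lower as deposited and 16.3% and 26.5% when centred. CER4 (AT4G33790), which makes the primary alcohols of wax, went from 0.337 and 0.376 RPKM to 138 and 68.3 RPKM (6.18 ± 0.27, adjusted p = 0.000379). GPAT6 (AT2G38110), a cutin acyltransferase of petals, went from 4.74 and 4.47 RPKM to 249 and 219 RPKM (5.39 ± 0.19, adjusted p = 0.000226), and CYP77A6 (AT3G10570) of the same pathway differed by 4.64. The SHN regulators of cuticle divided. SHN1 (AT1G15360) was at 0 in seedling and at 37.6 and 34.0 RPKM in bud (5.20 ± 0.16, adjusted p = 0.000173), whereas SHN2 (AT5G11190) fell from 4.50 and 5.31 RPKM to 0.0768 and 0.793 RPKM (-2.08 ± 0.24, adjusted p = 0.00410). KCS1 (AT1G01120), a wax elongase, was the other lower member (-0.65, adjusted p = 0.00847, and 0.0834 to 0.0838 without either bud). Leaving out the Col-0 bud, 8 were called higher and 1 lower, and without the Can-0 bud 7 and 1.

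Sugar export and uptake genes were also more often higher. Of 23 listed, 20 were tested, 13 called higher and 1 lower (12 and 1 when centred), with a median of 1.53. Of all tested genes 32.8% were called higher and 12.0% lower (16.3% and 26.5% when centred). SWEET9 (AT2G39060), the sucrose exporter of nectaries, was at 0 in both seedlings and at 31.4 and 28.4 RPKM in bud (4.95 ± 0.16, adjusted p = 0.000196). CWINV4 (AT2G36190), the cell-wall invertase that acts with it, went from 0.0424 and 0 RPKM to 107 and 93.9 RPKM (6.63 ± 0.18, adjusted p = 0.000139). The hexose carriers STP6 (AT3G05960), STP9 (AT1G50310) and STP11 (AT5G23270), known from pollen, differed by 4.39, 5.35 and 4.39. SWEET11 (AT3G48740), which loads sucrose into leaf phloem, was the only lower member (-1.77, adjusted p = 0.0166, and 0.182 to 0.194 without either bud). With the Col-0 bud left out, 9 were called higher and without the Can-0 bud 8.

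Jasmonate, the hormone that drives stamen ripening, had members in both directions. Of 21 genes 20 were tested, 12 called higher and 4 lower (10 and 5 when centred), with a median of 1.49. The shares over all tested genes were 32.8% higher and 12.0% lower (16.3% and 26.5% when centred). All 4 stamen MYB factors were higher under both scalings. MYB21 (AT3G27810) was listed at 0 in each seedling, against 372 and 371 RPKM in the buds (8.54 ± 0.14, adjusted p = 0.000117). MYB24 (AT5G40350) reached 16.7 and 12.6 RPKM (3.96 ± 0.19, adjusted p = 0.000461), and MYB108 (AT3G06490), which acts in anther opening, 55.4 and 62.5 RPKM (5.25 ± 0.20, adjusted p = 0.000267). Of the 6 oxide and ring enzymes 3 were lower, 1 was higher and 2 were not called. AOS (AT5G42650) measured 127 and 301 RPKM in seedling against 14.7 and 17.9 RPKM in bud (-3.51, adjusted p = 0.00139, and 0.0538 to 0.0634 without either bud). AOC2 (AT3G25770) stood at 117 and 342 RPKM against 2.55 and 1.43 RPKM (-6.10, adjusted p = 0.00203, and 0.0622 to 0.0741). Its paralog AOC4 (AT1G13280) was higher in bud, at 10.7 and 14.1 RPKM against 59.7 and 67.6 RPKM (2.27 ± 0.13, adjusted p = 0.000644). The AOC cyclase family thus had members called in both directions. DAD1 (AT2G44810), the stamen lipase that releases the precursor, was near the floor at 0.115 and 0.395 RPKM in bud, and OPR3 (AT2G06050), required for male fertility, stood at 27.8 and 65.7 RPKM against 79.1 and 98.6 RPKM and was not called (1.03 ± 0.37, adjusted p = 0.0830). JMT (AT1G19640), which methylates jasmonate in flowers, was higher (2.53 ± 0.19, adjusted p = 0.00139). The storage protein gene VSP1 (AT5G24780) ranked second of all features in both buds, at 5708 and 6005 RPKM, against 9.77 and 74.6 RPKM in seedling (7.68 ± 0.88, adjusted p = 0.00398, and 0.0985 to 0.112 without either bud). Without the Col-0 bud 6 members were called higher and 0 lower, and without the Can-0 bud 7 and 0, and the 5 lower when centred became 3 without either bud.

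**Figure D4:**
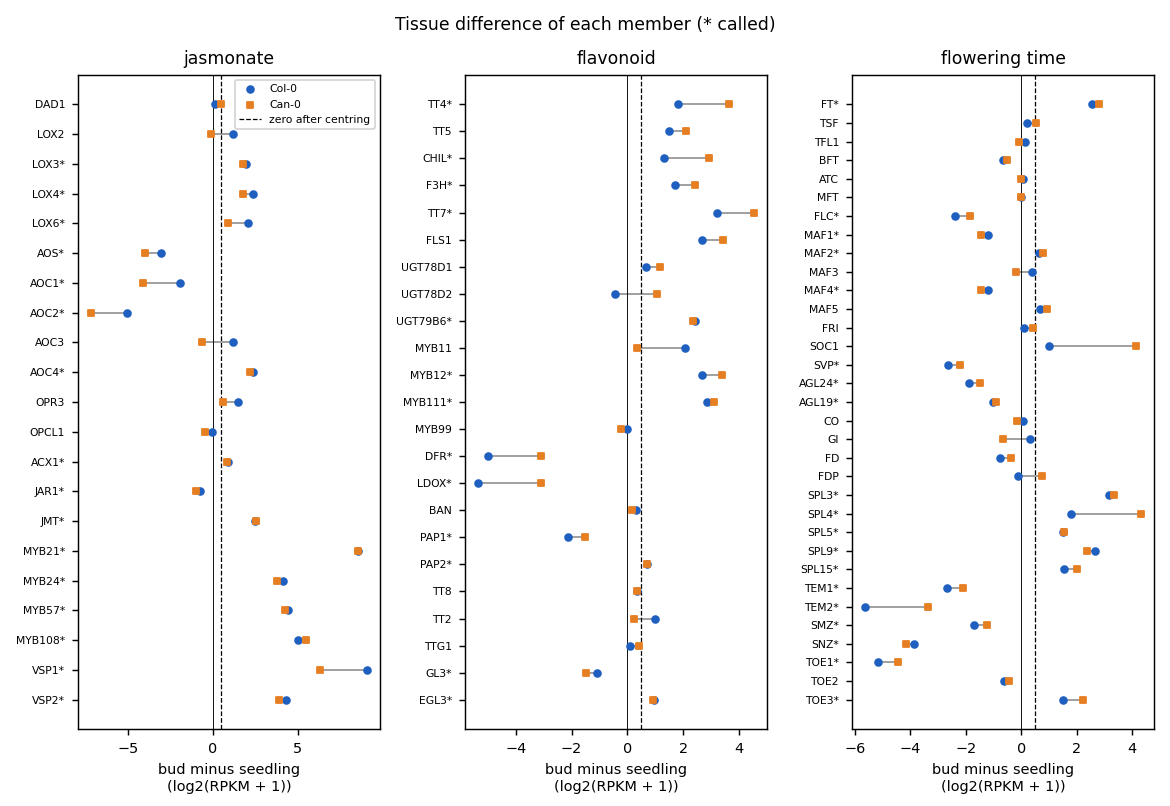
Floral bud minus seedling difference on the log2(RPKM + 1) scale (x axis) of each gene (y axis) in Col-0 (circles) and Can-0 (squares) for the jasmonate, flavonoid and flowering time lists, with an asterisk on called genes and a dashed line where 0 lies after centring. Each list holds members on both sides, as with MYB21 at 8.54 and AOC2 at -6.10, and the accessions lie close together for most members.

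As deposited, gibberellin genes were called in both directions among the synthesis genes and the receptors. Each of those calls was lost when 1 library was left out, and the 4 seedling and bud libraries alone gave 8 higher and 0 lower in the list. Of 28 listed, 21 were tested, 10 called higher and 2 lower (7 and 3 when centred), with a median of 0.54. Over all tested genes the shares were 32.8% higher and 12.0% lower (16.3% and 26.5% when centred). Among the DELLA proteins, which repress the hormone's responses, GAI (AT1G14920) and RGA (AT2G01570) differed by -0.09 ± 0.17 and 0.14 ± 0.19 and were not called, although GAI was called lower when centred (-0.58). RGL1 (AT1G66350) measured 4.18 and 11.8 RPKM in seedling against 69.1 and 83.8 RPKM in bud (3.24, adjusted p = 0.00311), RGL2 (AT3G03450) at 1.11 and 3.74 against 31.7 and 39.0 RPKM (3.52, adjusted p = 0.00166) and RGL3 (AT5G17490) at 0.943 and 1.93 against 9.71 and 11.1 RPKM (2.25, adjusted p = 0.00204). Both buds exceeded both seedlings for each RGL gene, although without either bud the 3 calls had adjusted p = 0.0638 to 0.0983. GASA4 (AT5G15230), a gibberellin-responsive peptide, rose from 65.8 and 81.8 RPKM to 466 and 312 RPKM (2.36 ± 0.24, adjusted p = 0.00295). The 3 higher synthesis genes were GA20OX2 (AT5G51810), from 0.189 and 0.557 RPKM to 4.190 and 4.197 RPKM (1.93 ± 0.28, adjusted p = 0.00723), and KAO1 (AT1G05160) and KAO2 (AT2G32440), which were not called when centred. The inactivating oxidases GA2OX1 (AT1G78440) and GA2OX2 (AT1G30040) differed by 2.27 and 2.24 (adjusted p = 0.00276 and 0.00540), and the receptor GID1A (AT3G05120) was higher as deposited (0.71, adjusted p = 0.0157) but not when centred. The calls of GA20OX2, KAO1, KAO2, GA2OX1, GA2OX2 and GID1A were lost without either bud. The lower members were the synthesis gene GA3OX1 (AT1G15550) (adjusted p = 0.0447, and 0.0775 to 0.189 without 1 of 5 libraries) and the receptor GID1C (AT5G27320) (adjusted p = 0.0450, and 0.0643 to 0.253 without any 1). Leaving out the Col-0 bud, 1 was called higher and 0 lower, and without the Can-0 bud 1 and 1 (1 lower of 3 when centred).

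Photosynthesis genes were lower in bud. The photosystem list holds 50 nuclear genes, 8 of them for electron carriers and ATP synthase. As deposited 47 were called lower and 1 higher, where 12.0% of tested genes were called lower, with a median of -2.05. When centred 49 of these genes were called lower and 0 higher. Their share of all RPKM fell from 13.9% and 11.3% to 3.55% and 2.94%. LHCB1.4 (AT2G34430), an antenna protein of photosystem II, was set apart from its relatives, at 1269 and 870.3 RPKM in seedling and 8.73 and 5.65 RPKM in bud (-7.03 ± 0.17, adjusted p = 0.000117). LHCB6 (AT1G15820), a minor antenna protein, fell from 3492 and 2711 RPKM to 769 and 512 RPKM (-2.29 ± 0.14, adjusted p = 0.000808), and PSBQ-2 (AT4G05180), of the oxygen-evolving complex, from 2202 and 2056 RPKM to 552 and 425 RPKM (-2.13 ± 0.13, adjusted p = 0.000775). LHCB4.3 (AT2G40100) was the only higher member, at 46.8 and 34.3 RPKM against 112 and 94.8 RPKM (1.34 ± 0.33, adjusted p = 0.0295). Its call was lost when centred, and had adjusted p = 0.116 to 0.269 without 1 of the Can-0 seedling and either bud. How reads were divided between LHCB1.3 (AT1G29930) and its near-identical copies LHCB1.1 and LHCB1.2 is uncertain. With the Col-0 bud left out, 11 photosystem genes were called lower and without the Can-0 bud 13, and with quantile normalization 35.

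The promoters of LHCB1.4, LHCB6 and PSBQ-2 are shown to set the gene with the largest decrease beside a pair with typical ones. Each holds the 250 bases before the RefSeq gene start in TAIR10.1, at chr2:14524357-14524606 on the plus strand, chr1:5447881-5448130 on the minus strand and chr4:2673244-2673493 on the minus strand, written 5′ to 3′. Capitals mark the G-box CACGTG, a light-response element, and the I-box GATAAG, on either strand.
LHCB1.4: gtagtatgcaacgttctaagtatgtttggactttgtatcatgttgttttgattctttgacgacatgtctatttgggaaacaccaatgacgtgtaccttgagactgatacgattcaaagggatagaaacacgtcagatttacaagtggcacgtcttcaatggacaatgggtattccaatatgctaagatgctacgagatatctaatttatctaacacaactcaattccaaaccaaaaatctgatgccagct
LHCB6: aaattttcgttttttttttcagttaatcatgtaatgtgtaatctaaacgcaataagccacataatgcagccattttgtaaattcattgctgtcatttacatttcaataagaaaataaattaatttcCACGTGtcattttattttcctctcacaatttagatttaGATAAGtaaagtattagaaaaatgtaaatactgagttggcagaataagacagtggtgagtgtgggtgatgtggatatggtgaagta
PSBQ-2: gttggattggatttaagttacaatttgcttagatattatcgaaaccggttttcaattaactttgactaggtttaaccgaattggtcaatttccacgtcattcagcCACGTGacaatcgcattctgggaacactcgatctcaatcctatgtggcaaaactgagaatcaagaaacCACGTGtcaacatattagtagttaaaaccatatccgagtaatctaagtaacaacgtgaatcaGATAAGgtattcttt
The LHCB1.4 window held neither motif, the LHCB6 window held 1 of each, and the PSBQ-2 window held 2 G-boxes and 1 I-box, none overlapping. Among the 50 photosystem promoters 9 (18%) held a G-box and 12 (24%) an I-box, against 6.58% and 12.2% of all promoters. Of the pollen lists the G-box was in 3 of 11 (27.3%) transcription factor and 2 of 12 (16.7%) cytoskeleton promoters and in 0 of the 11 tube wall, 30 tube signalling and 12 coat promoters. The I-box was in 6.67% (tube signalling) to 36.4% (tube wall) of the promoters of these 5 lists.

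Carbon fixation, photorespiration and chlorophyll synthesis moved the same way. Of 22 carbon fixation genes 20 were called lower and 0 higher (22 and 0 when centred), with a median of -1.51 and members from -3.10 to -0.76. RCA (AT2G39730), the activase of Rubisco, went from 4494 and 2761 RPKM to 994 and 925 RPKM (-1.88 ± 0.18, adjusted p = 0.00264). CA2 (AT5G14740), a carbonic anhydrase, stood at 583 and 465 RPKM against 69.8 and 51.2 RPKM (-3.10 ± 0.15, adjusted p = 0.000493). Of 13 photorespiration genes 9 were called lower and 0 higher (12 when centred), with a median of -1.11. Of 16 chlorophyll genes 14 were called lower and 0 higher (15 when centred), with a median of -1.58. GLK1 (AT2G20570), a transcription factor that switches on chloroplast genes, had the largest decrease there, at 50.3 and 53.6 RPKM against 2.64 and 3.84 RPKM (-3.66 ± 0.18, adjusted p = 0.000467). PORA (AT5G54190), known from dark-grown seedlings, was low in all 4 libraries, at 1.04 to 3.85 RPKM. Without the Col-0 bud the lower calls numbered 3, 0 and 6 in these lists, and without the Can-0 bud 5, 2 and 9.

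Nitrogen assimilation had 4 of 11 genes lower and 3 higher (4 and 2 when centred, and 2 lower then without the Can-0 bud). Across all tested genes 12.0% were called lower and 32.8% higher (26.5% and 16.3% when centred), so the higher calls were near that share. The plastid enzymes GLN2 (AT5G35630) and GLU1 (AT5G04140) were lower (-1.44 and -1.61, adjusted p = 0.00291 and 0.00225, and 0.0531 to 0.0784 without either bud). Cytosolic glutamine synthetase GLN1;3 (AT3G17820) was higher, at 21.3 and 29.3 RPKM against 106 and 151 RPKM (2.26 in Col-0 and 2.33 in Can-0, adjusted p = 0.000448). ASN1 (AT3G47340), which makes the transport amide asparagine, went from 1.66 and 0 RPKM to 182 and 127 RPKM (6.55, adjusted p = 0.00566, and 0.0792 to 0.109 without either bud). Without either bud 1 member was called higher and 0 lower.

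Flavonoid genes also went both ways. Of 23 listed, 19 were tested, 9 called higher and 4 lower (4 and 4 when centred, 8 higher then without either root, and 5 and 4 with quantile normalization), with a median of 0.91. Among all tested genes 32.8% were called higher and 12.0% lower (16.3% and 26.5% when centred), so calls in both directions are not particular to this list. The flavonol regulator MYB111 (AT5G49330) rose from 6.82 and 7.53 RPKM to 55.3 and 71.7 RPKM (2.97 ± 0.16, adjusted p = 0.000592), and UGT79B6 (AT5G54010), which decorates the flavonols of pollen, from 0 in both seedlings to 4.32 and 4.07 RPKM (2.38 ± 0.18, adjusted p = 0.00139). Of 8 genes of the flavonol branch 3 were higher and 0 lower, and of 10 anthocyanin genes 2 were higher (0 when centred) and 4 lower. DFR (AT5G42800) measured 37.8 and 11.9 RPKM in seedling against 0.226 and 0.499 RPKM in bud (-4.04, adjusted p = 0.00445, and 0.0711 to 0.0938 without either bud), and LDOX (AT4G22880) at 45.2 and 17.6 against 0.139 and 1.19 RPKM (-4.21, adjusted p = 0.00564, and 0.0626 to 0.0886). TT4 (AT5G13930), the chalcone synthase that feeds both branches, was higher at 305 and 498 RPKM in bud (adjusted p = 0.0356, and 0.0694 to 0.177 without 1 of these 4 libraries, and not called when centred). Leaving out the Col-0 bud, 3 were called higher and without the Can-0 bud 2, with 0 lower each time.

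Flowering-time genes were called in both directions. Of 33 listed, 29 were tested, 8 called higher and 11 lower (6 and 13 when centred), with a median of 0. For all tested genes the shares were 32.8% higher and 12.0% lower (16.3% and 26.5% when centred). All 5 SPL factors, which promote flowering with age, were higher, among them SPL3 (AT2G33810) at 0.360 and 0.280 RPKM against 11.2 and 12.2 RPKM (3.27 ± 0.17, adjusted p = 0.000555) and SPL9 (AT2G42200) at 2.33 and 3.21 against 19.9 and 20.6 RPKM (2.51 ± 0.18, adjusted p = 0.00119). Repressors of the AP2 and RAV type were lower in 5 of 7 cases. TOE1 (AT2G28550) measured 48.2 and 33.4 RPKM in seedling against 0.378 and 0.585 RPKM in bud (-4.80 ± 0.26, adjusted p = 0.000600), SNZ (AT2G39250) at 59.9 and 62.4 against 3.17 and 2.58 RPKM (-4.01 ± 0.16, adjusted p = 0.000285) and TEM1 (AT1G25560) at 62.0 and 31.3 against 8.79 and 6.46 RPKM (-2.40 ± 0.17, adjusted p = 0.00126). Only TOE3 (AT5G67180) of that family was higher (1.86, adjusted p = 0.0209, and 0.0645 to 0.203 without 1 of the Can-0 seedling and either bud, and not called when centred). The florigen gene FT (AT1G65480) was higher in bud, at 0.517 and 0 RPKM against 7.88 and 6.03 RPKM (2.68 ± 0.20, adjusted p = 0.00140). SVP (AT2G22540), a MADS repressor, was lower (-2.42, adjusted p = 0.00571, and 0.0708 to 0.0977 without either bud). FLC (AT5G10140), the repressor set by winter cold, differed between the accessions more than between tissues, at 4.85 and 104 RPKM in seedling and 0.123 and 27.8 RPKM in bud (-2.12, adjusted p = 0.0465, and 0.179 to 0.340 without 1 of the Col-0 seedling and either bud). SOC1 (AT2G45660), which FLC represses, stood at 25.1 RPKM in the Col-0 seedling, 1.95 RPKM in the Can-0 seedling and 50.6 RPKM in both buds, and was not called (2.56 ± 0.81, adjusted p = 0.0602). With the Col-0 bud left out, 5 were called higher and 3 lower, and without the Can-0 bud 4 and 4. When centred, 3 were higher without the Can-0 seedling and 8 lower without the Col-0 bud.

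Defence genes were more often lower than higher in bud, where 12.0% of all tested genes were called lower (26.5% when centred). Of 25 salicylic acid genes 11 were called lower and 1 higher (16 and 1 when centred, and 10 lower then without the Can-0 bud), with a median of -1.43. PCC1 (AT3G22231), a pathogen- and clock-regulated gene, measured 203 and 351 RPKM in seedling against 0.884 and 18.2 RPKM in bud (-5.48 ± 0.83, adjusted p = 0.00837). PR1 (AT2G14610), a marker of the response, stood at 72.7 and 248 against 0.115 and 1.78 RPKM (-6.26, adjusted p = 0.00124, and 0.0659 to 0.0693 without either bud). PBS3 (AT5G13320), which acts in salicylic acid synthesis, was the higher member (1.89, adjusted p = 0.0193, and 0.0696 to 0.200 without 1 of the Col-0 seedling and either bud). Of 23 glucosinolate genes, which make or break down sulfur-containing defence compounds, 17 were called lower and 1 higher (19 and 0 when centred), with a median of -2.21. All 6 chain-elongation genes and all 3 MYB regulators were lower. MYB29 (AT5G07690) stood at 50.5 and 55.8 RPKM against 2.33 and 3.51 RPKM (-3.80 ± 0.16, adjusted p = 0.000336), and CYP79F2 (AT1G16400), a first-step enzyme, at 7.36 and 9.89 against 0.513 and 1.56 RPKM (-2.28 ± 0.20, adjusted p = 0.00194). The breakdown enzyme TGG1 (AT5G26000) was abundant in both tissues, at 841 and 974 RPKM in seedling and 744 and 785 RPKM in bud (-0.24 ± 0.11, adjusted p = 0.125), and was called lower when centred (-0.73). NSP5 (AT5G48180), which diverts breakdown products to nitriles, was the higher member (1.65, adjusted p = 0.0358, and 0.0719 to 0.181 without 1 of these 4 libraries, and not called when centred). Without either bud 1 salicylic acid gene and 3 glucosinolate genes were called lower, and 0 higher in both lists.

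Cell division, stomatal and reference genes show how far the scaling decides small differences. Of 24 cell division genes 8 were called lower and 2 higher as deposited, with a median of -0.24, but 19 lower and 0 higher when centred and also with quantile normalization. The 19 became 8 to 12 when any 1 library was left out, a root included, and 12 with the 4 seedling and bud libraries alone. PCNA1 (AT1G07370), the replication clamp, measured 42.0 and 40.8 RPKM in seedling against 26.6 and 22.8 RPKM in bud (-0.73, adjusted p = 0.0105, and 0.0701 to 0.0940 without either bud). The mitotic cyclin CYCB1;1 (AT4G37490) stood at 8.61 and 8.56 against 9.02 and 9.82 RPKM (0.12 ± 0.14, adjusted p = 0.538). KN (AT1G08560), a syntaxin of the cell plate, stood at 71.8 and 60.9 against 44.3 and 45.8 RPKM (-0.54, adjusted p = 0.0209, and 0.0573 to 0.133 without 1 of 5 libraries). Both AUR1 (AT4G32830) and AUR2 (AT2G25880), mitotic kinases, were higher as deposited (0.66 and 0.57) and not when centred, and their adjusted p was 0.0584 to 0.214 without 1 library. Without either bud 0 of the 24 were called. Of 9 stomatal genes 2 were called lower as deposited, 8 when centred and 9 with quantile normalization, and without either bud 0. The 8 became 2 without the Col-0 seedling or the Col-0 bud, 1 without the Can-0 seedling and 3 without the Can-0 bud. Of 12 reference genes 2 were called higher as deposited (0 without either bud) and 1 lower when centred (0 without any 1 of the seedlings and buds). PP2AA3 (AT1G13320), a phosphatase subunit often used as a standard, measured 31.5 and 36.2 RPKM in seedling against 32.4 and 37.1 RPKM in bud, so it differed by 0.04 ± 0.10 as deposited and by -0.45 when centred, where it was called lower.

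The KN promoter is shown for the mitosis-specific activator core AACGG, marked in capitals, in the 250 bases before its gene start on the minus strand, chr1:2711001-2711250 of TAIR10.1.
KN: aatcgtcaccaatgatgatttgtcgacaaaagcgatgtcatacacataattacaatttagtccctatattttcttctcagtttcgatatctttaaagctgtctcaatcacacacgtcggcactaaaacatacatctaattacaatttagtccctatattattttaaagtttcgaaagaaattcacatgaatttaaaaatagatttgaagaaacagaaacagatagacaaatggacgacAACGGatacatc
On either strand this core was in 12 of 24 (50%) cell division, 6 of 11 (54.5%) pollen transcription factor and 4 of 12 (33.3%) pollen cytoskeleton promoters, and in 6.67% to 18.2% of those of the other 5 lists searched, against 20.6% of all promoters.

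Several further groups were small or mixed, beside shares over all tested genes of 32.8% higher and 12.0% lower (16.3% and 26.5% when centred). STM (AT1G62360), the knotted-type factor that keeps meristems undifferentiated, went from 2.79 and 2.25 RPKM to 37.9 and 42.8 RPKM (3.56 ± 0.17, adjusted p = 0.000482), in a list of 8 shoot patterning genes with 3 higher and 1 lower (2 and 3 when centred, 1 and 0 as deposited and 1 and 1 when centred without either bud, median 0.028). CLV3 (AT2G27250), the stem-cell peptide that WUS activates, was at or under 0.0558 RPKM in all 4 libraries. Of 9 vascular genes 2 were called higher as deposited (0 without any 1 library) and 2 lower when centred (0 to 1 without any 1 library), with a median of 0.19. Among root markers IRT1 (AT4G19690), an iron transporter of the root surface, was the exception to values near 0, at 0.0596 and 0 RPKM in seedling and 16.3 and 26.6 RPKM in bud (4.41, adjusted p = 0.000871, and 0.0562 to 0.0605 without either bud). Of the 15 root markers 9 were listed at 0 in both buds. The 14 clock genes had adjusted p from 0.0627 to 0.838 by limma and were not called under either scaling, but 5 were called higher without the Col-0 seedling and 4 higher and 1 lower without the Can-0 seedling. The morning gene LHY (AT1G01060) differed by 0.52 in Col-0 and 2.47 in Can-0, and the evening gene LUX (AT3G46640) by 1.51 and -0.51. The larger difference was thus in Can-0 for LHY and in Col-0 for LUX, and the hour of sampling is not given in the sources used here.

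**Figure D5:**
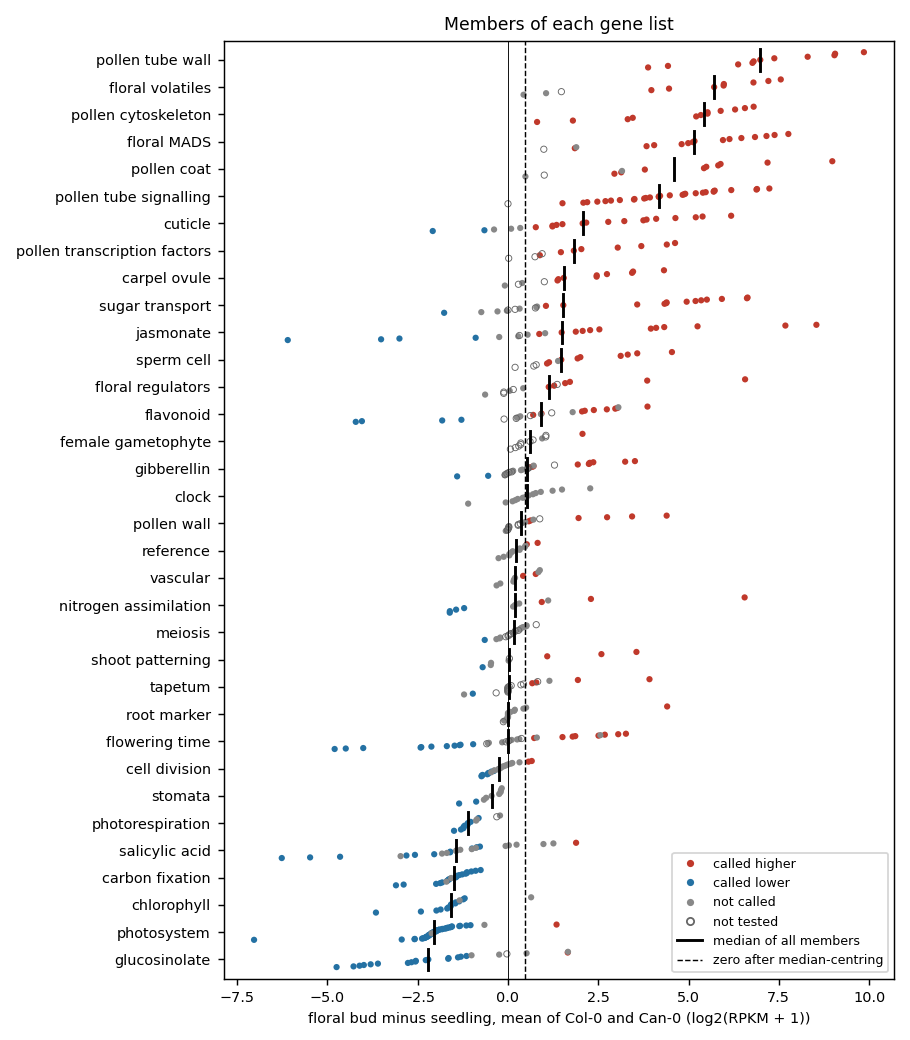
Floral bud minus seedling difference, mean of both accessions on the log2(RPKM + 1) scale (x axis), of every member of each gene list (y axis, sorted by median), coloured by call, with list medians as bars. Medians run from 6.99 for pollen tube wall to -2.21 for glucosinolate genes, and the dashed line at 0.48 shows where 0 lies after centring.

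The genes with the largest differences were mostly outside the gene lists, which hold 1 of the 15 highest and 4 of the 15 lowest. The 15 highest were at most 0.181 RPKM in either seedling and between 469 and 1225 RPKM in bud, and none of these calls was lost without any 1 library. AT3G01240, annotated as a glutamine/lysine-rich protein, led at 1225 and 1004 RPKM (10.12 ± 0.14, adjusted p = 0.000117), followed by AT3G49540, an uncharacterized protein, at 1037 and 1068 RPKM (10.00 ± 0.14, adjusted p = 0.000117). RALFL9 (AT1G61566), a signalling peptide, was at 0 in both seedlings and at 621 and 687 RPKM in bud, and AT5G38760, a late embryogenesis abundant protein, at 650 and 852 RPKM. Genes annotated as pectin lyase-like made up 4 of the 15, beside the polygalacturonase PGA4 and the VANGUARD-like VGDH2 (AT3G62170). Of the 4, AT3G07850 and AT3G14040 are near-identical copies of each other, and AT5G07410 is a near-identical copy of PPME1. Among the lowest genes, AT3G05730, a defensin-like protein, went from 443 and 338 RPKM to 0.764 and 0.947 RPKM (-7.71 ± 0.18, adjusted p = 0.000117). The beta-glucosidase PYK10 (AT3G09260) fell from 166 and 223 RPKM to 0.0242 and 2.98 RPKM (-6.58 ± 0.44, adjusted p = 0.00105) and its binding protein PBP1 (AT3G16420) from 106 and 102 RPKM to 0.0988 and 1.22 RPKM (-6.07 ± 0.27, adjusted p = 0.000397). Of the 15 lowest, 8 calls were lost without 1 bud library, as with MSRB6 (AT4G04840), a methionine sulfoxide reductase (-6.32, adjusted p = 0.00941, and 0.109 to 0.153).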

How the data were processed

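The authors deposited 1 file of RPKM per library, unit as named per the file headers. The submitters' processing notes name TAIR9 and TAIR10 but no role for either. The sources used here do not give the aligner, the counting, strand use or how multi-mapping reads were treated. RefSeq TAIR10.1 supplied names (28009 of 28775 features matched) and promoter windows, found for all listed genes of the lists searched. Near-identical copies are transcripts at 95% identity or more over 50% of their length by BLAST+ 2.17.0. Mapped reads were estimated from the step between small values of genes with 1 transcript.

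From the RPKM, log2(RPKM + 1) was fitted with limma 3.58.1 in R 4.3.3 over all 6 libraries, with tissue and accession as terms and an empirical Bayes trend (2 residual and 2.55 prior degrees of freedom), for genes reaching 1 RPKM in 2 or more libraries. Tests were two-sided with Benjamini-Hochberg adjustment over all 20830 genes at 0.05. The fit was checked on simulated data. Median-centring subtracted each library's median over those genes. The 34 gene lists hold 613 entries. Members and lists were chosen with earlier results of these data known and were not tested as sets. The named genes are the 15 highest and 15 lowest called, up to 4 per list by size, list members called against their list, all members of lists of 8 or fewer, a fixed set (FT, SOC1, FLC, SVP, LFY, AG, DAD1, OPR3, MYB21, MYB24, RALF4, RALFL19, DUO1, EC1.1 to EC1.5, TDM1) and the 5 genes each way that differ most between accessions. Other members named here were picked after their values were seen. The 18 alternatives cover scaling, pseudocount, filter, threshold, model terms and each library left out, and those for the centred counts were added after seeing the data.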

Additional observations from a re-analysis of the deposited data

Results flagged for a closer look

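In 2 genes the tissue difference went opposite ways in the accessions by at least 1 each, and with 1 library per accession and tissue that difference was not tested. AT1G07050 differed by 2.021 in Col-0 and by -2.044 in Can-0. The photoperiod gene FKF1 (AT1G68050) differed by 2.224 in Col-0, from 11.3 to 56.5 RPKM, and by -1.406 in Can-0, from 82.3 to 30.4 RPKM.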

How the results depend on the processing

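No paired analysis was possible because each library carries the same replicate number, if pairing by that number is meant. Pairing by accession is part of the fit: its accession term sets bud against seedling within an accession, the 4 seedling and bud libraries alone gave 5183 genes higher and 2133 lower on 1 residual degree of freedom, and without the term 5783 were called higher and 2008 lower. Against 6837 higher calls, quantile normalization gave 3730, a minimum difference of 1 gave 3768, an adjusted p under 0.01 gave 3478, centring 3385, and leaving out 1 library 1789 to 5156. Against 2499 lower calls these gave 5250, 1522, 1245, 5522 and 306 to 2092. Against 3385 centred higher calls, an adjusted p under 0.01 gave 2060 and leaving out 1 library 2201 to 3037, with 2204 without the Col-0 bud. Against 5522 centred lower calls, a minimum difference of 1 gave 2861, an adjusted p under 0.01 gave 2589 and leaving out 1 library 2458 to 4996, with 2622 without the Col-0 bud and 3234 and 3249 without the Col-0 or Can-0 seedling. The median difference over tested genes, 0.27, was -0.21 when centred and -0.15 with quantile normalization. It was 0.32 and 0.17 with pseudocounts of 0.1 and 5, 0.20 with no filter, 0.31 for a mean of at least 5 RPKM, and 0.26 to 0.29 without 1 library. Of 197 tested named genes 69 lost their call without the Col-0 bud and 69 without the Can-0 bud, and 0 changed under robust estimation. Signs turned in 12, none of them called as deposited except XCP2. When centred these were XCP2 (-0.066), FIL (-0.47), CASP2 (-0.057), UBC21 (-0.020) and COBL9 (-0.29). With quantile normalization they were ZYP1A (-0.22), TAM (-0.23), FIL (-0.52), CASP2 (-0.18), COBL9 (-0.046) and PIN2 (-0.090). Without the Can-0 seedling CYP71A13 gave 0.23 and FIL -0.32, and without the Can-0 bud FIL gave -0.42 and COBL9 -0.16. Without the Col-0 seedling AT4G33980 gave -0.46, AT5G42530 0.41 and COR27 -0.85, and without the Col-0 bud AT4G33980 gave -0.022. Over the 6 libraries left out in turn, the other end of the range was -5.76 for CYP71A13, 0.45 for FIL, 3.56 for AT4G33980, -5.95 for AT5G42530, 5.49 for COR27 and 0.54 for COBL9. The cause was not tested. Depth limits genes of 1 kb under about 0.138 RPKM, and shorter genes at higher values.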

Other observations

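Of 11 genes annotated with the domain of unknown function DUF1216, 10 were tested and all 10 were called higher in bud by limma, and 1, AT5G48575, was listed at 0 in all 4 libraries. Outside the buds only AT3G28840 reached 1 RPKM, at 2.14 RPKM in the Col-0 seedling, so the tested members passed the filter through the buds. The filter thus favoured a higher call among those tested. The family was also noticed after its values were seen, so this is a description. In 7 of the 11 both seedlings were listed at 0, AT5G48575 among them, and 8 lie near each other on chromosome 3, from AT3G28770 to AT3G28980. AT5G61720 reached 737 and 934 RPKM in the buds (9.70 ± 0.16, adjusted p = 0.000117) and AT3G28790 reached 514 and 885 RPKM (9.40 ± 0.25, adjusted p = 0.000135). AT3G28810, at 71.2 RPKM in the Col-0 bud and 3.19 RPKM in the Can-0 bud, was not called when centred, and has a near-identical copy in AT3G28820.

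A further 275 features stood at 10 RPKM or more in both buds and were listed at 0 in both seedlings, and 184 of them were also listed at 0 in both roots. Only 40 of the 275 are members of the gene lists. The 275 of 28775 features include 13 of 73 and 6 of 34 under the 2 annotations for invertase and pectin methylesterase inhibitors. They also include 10 of 103 pectin lyase-like genes and 9 of the 60 genes of the self-incompatibility S1 family. The most frequent annotation among them was uncharacterized protein, with 15 of 2219. The reverse, at least 10 RPKM in both seedlings and 0 in both buds, held for 3 features. These were AT1G31690, a copper amine oxidase, at 20.4 and 59.5 RPKM, and the extensin-like AT3G16660 and AT3G16670, at 17.8 and 10.1 and at 54.6 and 26.6 RPKM.

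Other genes differed mainly between the accessions in how far bud and seedling stood apart. The thionin gene THI2.1 (AT1G72260), an antimicrobial peptide, was listed at 0 in each seedling, against 397 RPKM in the Col-0 bud and 1.15 RPKM in the Can-0 bud. The uncharacterized AT1G34095 stood at 206 and 2.22 RPKM in bud. LCR9 (AT2G27145), a cysteine-rich peptide, was listed at 0 in each seedling, against 2.01 and 58.8 RPKM in bud. ESP (AT1G54040), which steers glucosinolate breakdown, stood at 13.5 and 18.0 RPKM in Col-0 seedling and bud and 2064 and 3221 RPKM in Can-0. With 1 library each these gaps have no replicate check.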
